A study of Mus musculus with 31 samples.

Results

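Mitochondrial ribosomal proteins are encoded in the nucleus and imported into mitochondria, where they form the large (Mrpl genes) and small (Mrps genes) subunits of the ribosome that translates the mRNAs of the mitochondrial genome. The genes are all protein-coding genes whose GENCODE vM21 symbol starts with Mrpl or Mrps followed by a digit and that are present in both count tables of the series. They number 77, of which 48 encode large and 29 encode small subunit proteins, among 34519 genes present in both tables and 21397 that are also protein coding. The pattern matches 83 symbols, of which 5 are pseudogenes and 78 are protein coding, and 1 coding gene, Mrpl33, is missing from the count table of the insulin experiment. The 2 tables hold 35275 genes (insulin experiment) and 54532 genes (ERRα3SA experiment).

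Livers of WT and ERRα-/- mice came from an insulin experiment, and livers and skeletal muscles of WT and ERRα3SA littermates came from a knock-in experiment, for 31 libraries in 8 groups. All mice were male C57BL/6N animals, age-matched littermates of 2 to 3 months on a standard diet. In the insulin experiment mice were fasted for 12 h, injected intraperitoneally with saline (4 WT, 4 ERRα-/-) or with 1 unit per kg of insulin (4 WT, 3 ERRα-/-), and killed 4 h later. The ERRα3SA mice carry 3 serine-to-alanine changes in the endogenous ERRα protein and were compared untreated with WT littermates, 4 animals per genotype, in liver and in muscle. The ERRα-/- mice lack the receptor in every tissue from conception, so a difference in their liver may follow from its lifelong absence elsewhere. The insulin groups give 1 dose at 1 time after a fast, and there is no unfasted group. The ERRα3SA samples carry no insulin treatment.

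Total counts per library ranged from 35871419 to 48317108 in the insulin experiment and from 20481405 to 33412022 in the ERRα3SA experiment, and values are CPM scaled by TMM within each table. Tests were made only within a table. The hepatocyte markers, led by Alb, summed to 85931, 80162, 75669 and 85062 CPM in WT saline livers and to 97486, 86874, 102195 and 87065 CPM in livers of the WT littermates. In the muscles of WT littermates they summed to 0.878, 1.26, 0.455 and 1.18 CPM, while muscle fibre markers summed to 102600.0, 103007, 108365 and 115763 CPM. Muscle fibre markers stayed at or below 13.3 CPM in every liver library except replicate 3 of WT insulin, at 99.3 CPM. The tissues are therefore liver and muscle as labelled.

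Esrra, which encodes ERRα, was read first as a check of the knockout. It measured 32.3, 51.3, 42.7 and 40.5 CPM in WT saline livers and 53.7, 96.4, 56.1 and 58.97 CPM in WT insulin livers. In ERRα-/- livers it measured 1.63, 0.703, 1.15 and 1.04 CPM after saline and 0.833, 0.576 and 0.298 CPM after insulin. Every ERRα-/- library lay far below every WT library, with a log2 fold change of −5.20 after saline (standard error, SE, 0.24, adjusted p = 2.58e-06 by the quasi-likelihood test of edgeR, adjusted by Benjamini-Hochberg). In the ERRα3SA experiment Esrra was 27.7, 27.1, 28.2 and 29.4 CPM in WT and 29.4, 25.4, 21.1 and 19.2 CPM in mutant livers, which overlapped. Muscle gave 90.2, 82.6, 66.9 and 78.04 CPM in WT and 24.3, 133, 127 and 94.5 CPM in ERRα3SA, where replicate 1 stood below and the other 3 stood above every WT muscle. The log2 fold change in ERRα3SA muscle was 0.28 (SE 0.41, unadjusted p = 0.514, edgeR).

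Of the 77 genes, 76 had enough counts to be tested in every comparison. The exception, Mrpl53, which encodes a large subunit protein, had 0 counts in all 31 libraries, and its main transcript is covered to 100% by Gm42688 on the same strand, and whether its reads were lost to that gene was not tested. Another gene covers at least 20% of the main transcript of 11 members, Mrpl53 included, and values of these 11 are uncertain. For 8 of them the covering gene is on the opposite strand and the strand setting of the counting is not given, and for 3 (Mrpl53, Mrps6 and Mrps18c) it is on the same strand, where shared reads are ambiguous under any setting. They include Mrps18b (59.1% covered), Mrps25 (75.6%), Mrps34 (62.8%), Mrps6 (36.1%) and Mrps18c (27.3%), whereas 50 members are not covered at all. The genes lie on 17 chromosomes, with 11 on chromosome 11, 8 on chromosome 17 and 7 on chromosome 6. A protein-coding neighbour starts within 1000 bases on the opposite strand of 23 members. The members have short transcripts, with a median of 1316 nucleotides against 2882 over the genes tested between WT muscle and WT liver, and a median GC content of 50.7% against 50.1%. In the list used here 45 members (29 large, 16 small) have a bacterial counterpart and 32 do not, and Mrps18a and Mrps18b are counted among the 32 although both are related to bacterial S18.

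Levels per gene were compared within a library after division by transcript length. The median member had 11.03 CPM per kb in WT saline, 13.1 in WT insulin, 11.6 in ERRα-/- saline and 11.2 in ERRα-/- insulin livers. In the other table the medians were 19.1 in WT liver, 18.6 in ERRα3SA liver, 18.1 in WT muscle and 19.2 in ERRα3SA muscle, and the 2 tables are not on a common scale. Mrpl52, a large subunit protein without bacterial counterpart, had the highest level in every liver group, at 33.1 CPM per kb in WT saline and 82.01 in livers of the WT littermates. In muscle the highest was Mrpl42, at 222 CPM per kb in WT and 253 in ERRα3SA. Among small subunit genes Mrps10 led in WT saline livers with 26.7 CPM per kb and in ERRα-/- insulin livers with 28.1. Mrps21 led in the other 6 groups, from 26.3 CPM per kb in ERRα-/- saline livers to 102 in WT and 120.1 in ERRα3SA muscles. The lowest values apart from Mrpl53 belonged to Mrpl19 in the large subunit (2.25 CPM per kb in WT saline livers) and to Mrps25 in the small subunit (0.997), both among the covered members. The main transcript measures 418 nucleotides for Mrpl52, 5000 for Mrpl19 and 6073 for Mrps25, so these ranks depend on the transcript used for the length.

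Summed over the large subunit genes, WT saline livers had 903, 759, 919 and 899 CPM and WT insulin livers 932, 1119, 913 and 980.1 CPM. Replicate 2 was the lowest of the WT saline livers and replicate 2 was also the highest of the WT insulin livers. Without these 2 libraries the groups still touched, since replicate 3 of WT insulin (913 CPM) lay below replicate 3 of WT saline (919 CPM). ERRα-/- livers had 847, 892, 886 and 974 CPM after saline and 845, 779 and 877 CPM after insulin. All 3 ERRα-/- insulin livers lay below all 4 WT insulin livers, and they overlapped with ERRα-/- saline.

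Small subunit genes summed to 454, 375, 446 and 441 CPM in WT saline and 472, 585, 458 and 482 CPM in WT insulin livers. Every WT insulin liver lay above every WT saline liver in this sum, by little (458 against 454 CPM at the nearest). The order depended on the scaling. With library totals in place of TMM the sum over all members was 1372 CPM in replicate 1 of WT insulin, below 1465 CPM in replicate 3 of WT saline. The ERRα-/- livers had 442, 454, 426 and 482 CPM after saline and 419, 399.7 and 440.3 CPM after insulin, and these 2 groups overlapped. The ratio of large to small subunit sums was 1.99, 2.02, 2.06 and 2.04 in WT saline and 1.97, 1.91, 1.99 and 2.03 in WT insulin livers. It was 1.91, 1.96, 2.08 and 2.02 in ERRα-/- saline and 2.02, 1.95 and 1.99 in ERRα-/- insulin livers, so that all 15 libraries stayed between 1.91 and 2.08 and no group stood apart.

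**Figure D1:**
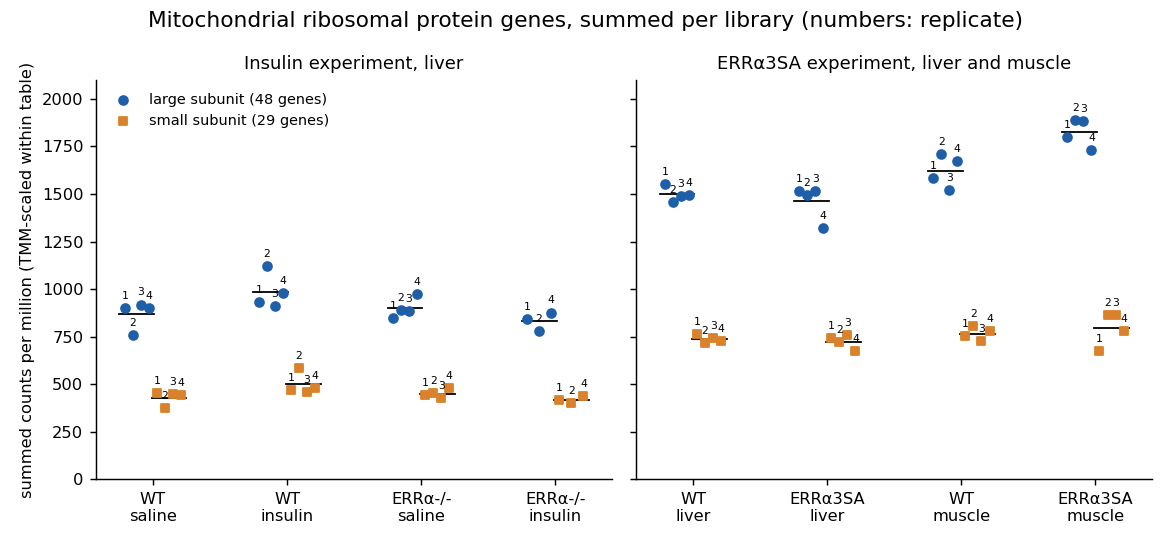
Summed TMM-scaled CPM of the 48 large (circles) and 29 small (squares) subunit genes in each library, with numbers for replicates and bars for group means. The y axis is linear, the 2 count tables stand in separate panels, and ERRα-/- insulin livers reach 779 to 877 CPM in large subunit genes where WT insulin livers reach 913 to 1119.

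In the ERRα3SA experiment the large subunit genes summed to 1551, 1457, 1490.3 and 1496 CPM in WT and 1516, 1493, 1514 and 1323 CPM in ERRα3SA livers, which overlapped, with replicate 4 of ERRα3SA the lowest. In muscle they summed to 1582, 1708, 1521 and 1672 CPM in WT and 1801, 1888, 1883 and 1733 CPM in ERRα3SA, and every ERRα3SA library lay above every WT library. The small subunit sums were 752, 808, 727 and 779 CPM in WT and 675, 862, 861 and 781 CPM in ERRα3SA muscles, where replicate 1 of ERRα3SA was below all others and replicates 2 and 3 were above all others. The ratio of large to small was 2.67, 2.19, 2.19 and 2.22 in ERRα3SA muscles against 2.10, 2.11, 2.09 and 2.15 in WT muscles. Replicate 1 of ERRα3SA muscle thus stood alone, and its order depended on the scaling, since with library totals in place of TMM its sum over all members was 1979 CPM, below the 2368 to 2704 CPM of WT muscles.

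**Figure D2:**
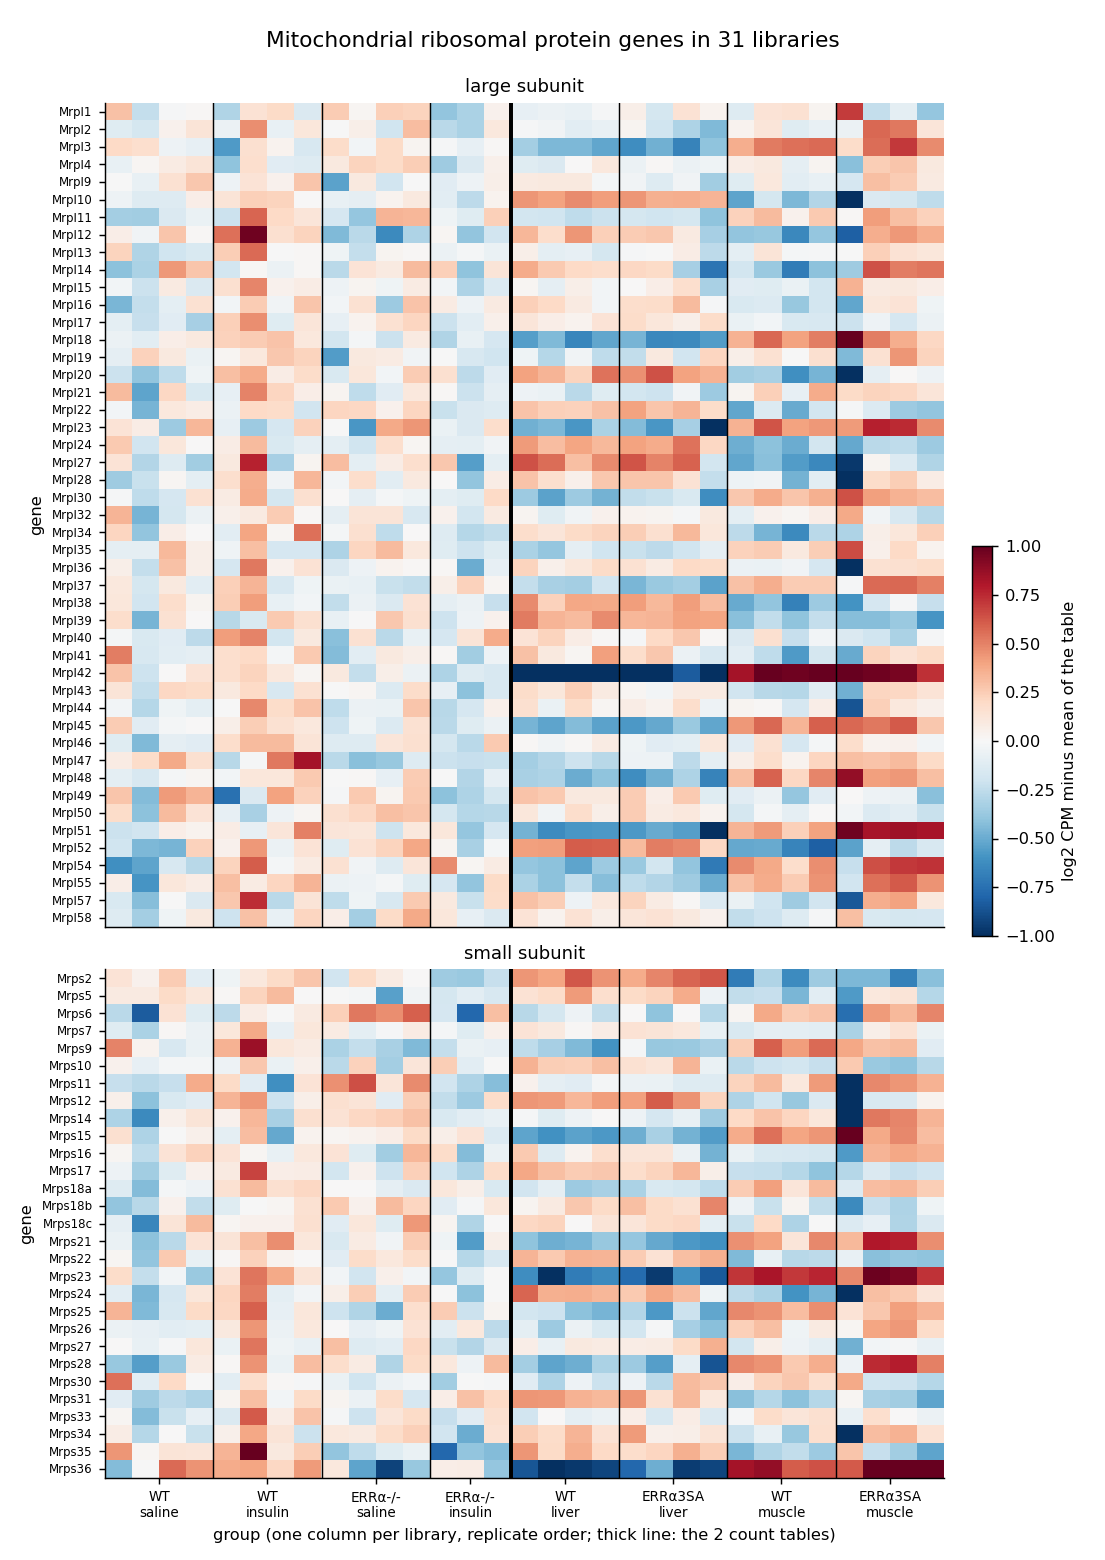
Log2 CPM of the 76 detected genes in 31 libraries, each gene centred on its mean within a count table, large subunit at the top and small subunit at the bottom, with colour limits of −1 and 1. Replicate 2 of WT insulin is red for most genes (highest of the WT libraries for 42 of 76), and replicate 1 of ERRα3SA muscle differs from its 3 fellow replicates in both directions.

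In WT liver the called genes were all higher with insulin. The share called in either direction was near that of all genes. The called genes came from both subunits, and most of the remaining genes leaned the same way by a small amount. The count rested in part on 1 saline and 1 insulin library. Of 76 genes tested, 13 were higher (8.34% of all 13463 genes tested were) and 0 were lower (8.91% of all genes) at an unadjusted p under 0.05 with a fold change of 1.2 or more. By subunit these were 8 of 47 large and 5 of 29 small subunit genes. The median log2 fold change was 0.21 over the members and 0.00 over all genes, with 63 of 76 above 0. By subunit the median was 0.18 in large and 0.24 in small subunit genes, whether called or not. After adjustment by the quasi-likelihood test of edgeR, adjusted by Benjamini-Hochberg, 0 of 76 passed (3.16% of all genes did), the lowest adjusted p being 0.0772, while at an unadjusted p alone there were 13 by edgeR and 14 calls with DESeq2. Without replicate 2 of WT saline the count was 7 (6 higher, 1 lower, against 15.3% of all genes called), and with offsets for transcript length and GC content it was 8 (16.2% of all genes called), of which 6 were among the 13. In each of these fits the share of members called lay below that of all genes. Replicate 2 of WT saline was the lowest of the 8 libraries for 47 members and replicate 2 of WT insulin the highest for 42. The first of these libraries also had erythroid markers at 428 CPM (166 to 255 CPM in its fellow replicates) and macrophage markers at 267 CPM (134 to 185 CPM). In the second the mitochondrial mRNAs summed to 19124 CPM, against 37624 to 40088 CPM in its fellow replicates. The part of these differences in the result was not tested.

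The largest change was in Mrpl54, a large subunit protein without bacterial counterpart, which measured 8.16, 8.66, 11.3 and 10.4 CPM after saline and 14.9, 19.6, 12.53 and 13.5 CPM after insulin. All insulin livers lay above all saline livers, and the log2 fold change was 0.65 (SE 0.18, unadjusted p = 0.00421, edgeR). Mrpl20, the counterpart of bacterial L20 that binds the large subunit rRNA, had 20.5, 18.03, 19.99 and 23.2 CPM after saline and 29.5, 31.1, 25.2 and 27.2 CPM after insulin. It too separated the groups fully, with a log2 fold change of 0.47 (SE 0.13, unadjusted p = 0.00333, edgeR). Mrpl46 had 11.99, 9.51, 12.2 and 12.02 CPM after saline and 14.8, 16.4, 16.4 and 14.3 CPM after insulin, again without overlap. Its log2 fold change was 0.44 (SE 0.14, unadjusted p = 0.00902, edgeR). In the small subunit Mrps31 had 25.5, 21.5, 23.03 and 22.2 CPM after saline and 28.2, 34.1, 27.2 and 31.7 CPM after insulin. The groups did not overlap, and the log2 fold change was 0.39 (SE 0.12, unadjusted p = 0.00847, edgeR).

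Mrpl12, the L7/L12 stalk protein that recruits translation factors and also binds the mitochondrial RNA polymerase, measured 25.3, 23.5, 29.4 and 24.3 CPM after saline and 35.5, 47.7, 26.96 and 28.3 CPM after insulin. Replicates 1 and 2 of the insulin group were above all saline livers, whereas replicates 3 and 4 lay among them, and the log2 fold change was 0.43 (SE 0.18, unadjusted p = 0.0354, edgeR). The call was lost without replicate 1, 2 or 4 of WT saline and without replicate 1 or 2 of WT insulin. Mrpl11, a protein of the stalk base, had 11.5, 11.4, 13.3 and 14.01 CPM after saline and 12.6, 22.2, 16.9 and 16.01 CPM after insulin. Its groups overlapped, with a log2 fold change of 0.43 (SE 0.18, unadjusted p = 0.0333, edgeR). Of the 3 relatives of bacterial S18, Mrps18a was 14.8, 11.8, 16.02 and 15.6 CPM after saline and 18.1, 20.3, 18.1 and 18.8 CPM after insulin, with a log2 fold change of 0.37 (SE 0.14, unadjusted p = 0.0184, edgeR). Neither of the other 2, Mrps18b (0.23) and Mrps18c (0.10), both uncertain because covered, was called. Values of 0.17 for Mrpl58, a peptidyl-tRNA hydrolase that frees stalled ribosomes, 0.10 for Mrpl41, also known from work on apoptosis, and −0.17 for Mrps30, which structures place in the large subunit, were not called either. Nor was Mrps36 called (0.18), whose product is known as a subunit of the oxoglutarate dehydrogenase complex.

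**Figure D3:**
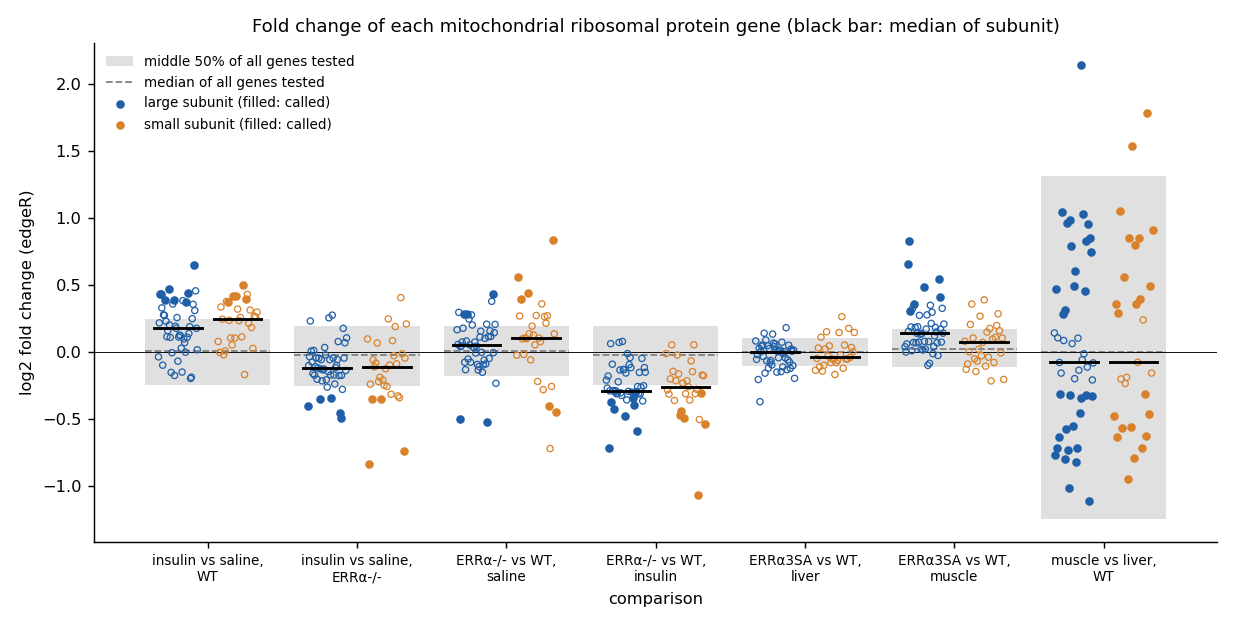
Log2 fold change of each of the 76 genes in 7 comparisons (x axis), large subunit in blue and small subunit in orange, filled where called, with black bars for subunit medians and grey bands for the middle 50% of all genes tested. Members lean above 0 with insulin in WT liver (median 0.21), below 0 in ERRα-/- against WT liver after insulin (−0.28), and spread widely in both directions between muscle and liver.

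In ERRα-/- liver the called genes were lower with insulin and none was higher. The share that was lower was near that of all genes. The called genes came from both subunits. Of 76 genes 0 were higher (8.05% of all 13684 genes tested) and 9 were lower (9.14% of all genes), 5 of them large and 4 small subunit genes. The median was −0.12 for members and −0.02 for all genes, with 59 of 76 below 0, and it was −0.12 in the large and −0.11 in the small subunit. By the quasi-likelihood test of edgeR, adjusted by Benjamini-Hochberg, 1 member passed (2.91% of all genes did). The count was 14 (1 higher, 13 lower) without replicate 1 of ERRα-/- saline (17.8% of all genes called) and 5 without replicate 1 of ERRα-/- insulin (14.6%), and with length and GC offsets it was again 9 (16.95% of all genes called), of which 6 were among the first 9 and lower and 3 were other members and higher.

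The member that passed was Mrpl50, a large subunit protein without bacterial counterpart, at 32.4, 33.5, 35.9 and 35.2 CPM after saline and 25.5, 23.7 and 23.8 CPM after insulin. The 3 insulin livers were below all 4 saline livers, and the log2 fold change was −0.50 (SE 0.10, adjusted p = 0.0286 by the quasi-likelihood test of edgeR, adjusted by Benjamini-Hochberg). In WT livers the same gene had 33.01, 21.7, 36.2 and 31.9 CPM after saline and 27.3, 23.00, 27.9 and 29.4 CPM after insulin, which overlapped. Mrps11, the counterpart of bacterial S11, was low throughout, at 5.38, 6.18, 4.16 and 5.45 CPM after saline and 3.25, 2.96 and 2.69 CPM after insulin in ERRα-/- liver. It separated the groups, with a log2 fold change of −0.84 (SE 0.21, unadjusted p = 0.00255, edgeR). Mrpl49 had 14.1, 17.2, 14.5 and 17.2 CPM after saline and 10.6, 11.4 and 12.6 CPM after insulin. All insulin values were lower, with a log2 fold change of −0.46 (SE 0.14, unadjusted p = 0.00694, edgeR). For Mrps2, the counterpart of bacterial S2, the values were 26.3, 34.5, 31.9 and 30.1 CPM and 23.4, 23.2 and 25.6 CPM. They did not overlap, and the log2 fold change was −0.36 (SE 0.12, unadjusted p = 0.0136, edgeR). The stalk protein Mrpl12 was not called, at 17.7, 19.9, 15.3 and 19.4 CPM after saline and 24.5, 18.2 and 21.03 CPM after insulin (log2 fold change 0.23). None of Mrpl11 (−0.04), Mrpl58 (−0.14), Mrpl41 (−0.05), Mrps18a (0.06), Mrps18b (−0.22), Mrps18c (−0.19), Mrps30 (−0.03) and Mrps36 (0.40) was called.

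In the main fit the direct test of the difference between the 2 insulin effects gave the largest number of calls in the insulin experiment. All of them meant a more positive insulin effect in WT than in ERRα-/- liver. Small subunit genes made up most of them. With library totals the direct test gave 21 calls, below the 25 of ERRα-/- against WT liver after insulin. With length and GC offsets it gave the fewest of the insulin experiment. Of 76 genes 19 had a positive interaction (4.75% of all 14670 genes tested) and 0 a negative one (4.04% of all genes), namely 8 of 47 large and 11 of 29 small subunit genes. The median was 0.31 for members and 0.02 for all genes, at 0.26 in large and 0.40 in small subunit genes, and 67 of 76 lay above 0. No member passed by the quasi-likelihood test of edgeR, adjusted by Benjamini-Hochberg (0% of all genes did), with a lowest adjusted p of 0.461, while edgeR gave 19 at an unadjusted p with the fold threshold and DESeq2 gave 18. The count depended on single libraries, at 6 without replicate 2 of ERRα-/- insulin (5.82% of all genes called), 8 without replicate 2 of WT saline (7.16%), 9 without replicate 4 of ERRα-/- saline (6.70%), 11 without replicate 2 of WT insulin (8.35%) and 12 without replicate 1 of ERRα-/- insulin (7.40%). The first 2 of these libraries had the highest erythroid marker sums of the 15 livers, in a list led by Hbb-bs that summed to 166, 428, 255 and 246 CPM in WT saline, 339.6, 349, 255 and 221 CPM in WT insulin, 259.7, 239, 147 and 171 CPM in ERRα-/- saline and 237, 430.1 and 172 CPM in ERRα-/- insulin livers, and its part in the result was not tested. Offsets for length and GC content gave 4 calls, all positive, against 3.60% of all genes positive in that fit. Of these, 3 were among the 19 and 1 was another member.

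Mrps6, uncertain because 36.1% of its transcript is covered by a gene on the same strand, measured 1.66, 0.962, 2.38 and 1.90 CPM in WT saline and 1.67, 2.24, 2.10 and 2.28 CPM in WT insulin livers. Its values in ERRα-/- livers were 2.57, 3.25, 3.09 and 3.44 CPM after saline and 1.82, 1.02 and 2.71 CPM after insulin. The ERRα-/- saline livers had the highest mean of the 4 groups, and the log2 difference between insulin effects was 1.00 (SE 0.47, unadjusted p = 0.0463, edgeR). Mrps11 had 3.16, 3.05, 3.15 and 5.04 CPM in WT saline and 4.38, 3.46, 2.29 and 4.22 CPM in WT insulin livers, with replicate 4 apart in the first group. The log2 difference was 0.83 (SE 0.35, unadjusted p = 0.0299, edgeR), with a WT change of −0.00. After saline Mrps11 was also called higher in ERRα-/- than in WT liver, with overlap (0.55 (SE 0.22, unadjusted p = 0.0303, edgeR)), and after insulin the ERRα-/- values lay within the WT range. Mrps35, a small subunit protein without bacterial counterpart, had 19.3, 14.3, 15.4 and 15.4 CPM in WT saline and 17.9, 30.1, 15.1 and 16.8 CPM in WT insulin livers. In ERRα-/- livers it had 10.6, 11.7, 12.9 and 13.4 CPM after saline and 7.96, 10.6 and 10.3 CPM after insulin. Replicate 2 of WT insulin was the highest of all 15 livers, and the log2 difference was 0.65 (SE 0.28, unadjusted p = 0.0339, edgeR).

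Mrpl52 was the leading large subunit gene, at 13.8, 11.5, 11.4 and 18.8 CPM in WT saline and 16.4, 21.6, 15.3 and 17.6 CPM in WT insulin livers. Its ERRα-/- values were 14.6, 17.6, 18.7 and 20.99 CPM after saline and 16.2, 12.6 and 15.7 CPM after insulin, so that the groups overlapped within each genotype. The log2 difference was 0.63 (SE 0.26, unadjusted p = 0.0245, edgeR). Mrps18b, covered and uncertain, had a log2 difference of 0.45 (SE 0.19, unadjusted p = 0.0284, edgeR). For these 5 genes the call was lost when any of at least 5 single libraries was left out, replicate 2 of WT saline being 1 of them for Mrps6, Mrps11, Mrps35 and Mrpl52. The interaction was not called for Mrpl12 (0.20), Mrpl11 (0.46), Mrpl58 (0.31), Mrpl41 (0.14), Mrps18a (0.30), Mrps18c (0.29), Mrps30 (−0.14) or Mrps36 (−0.23). A direct role of ERRα in these differences was not tested.

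**Figure D4:**
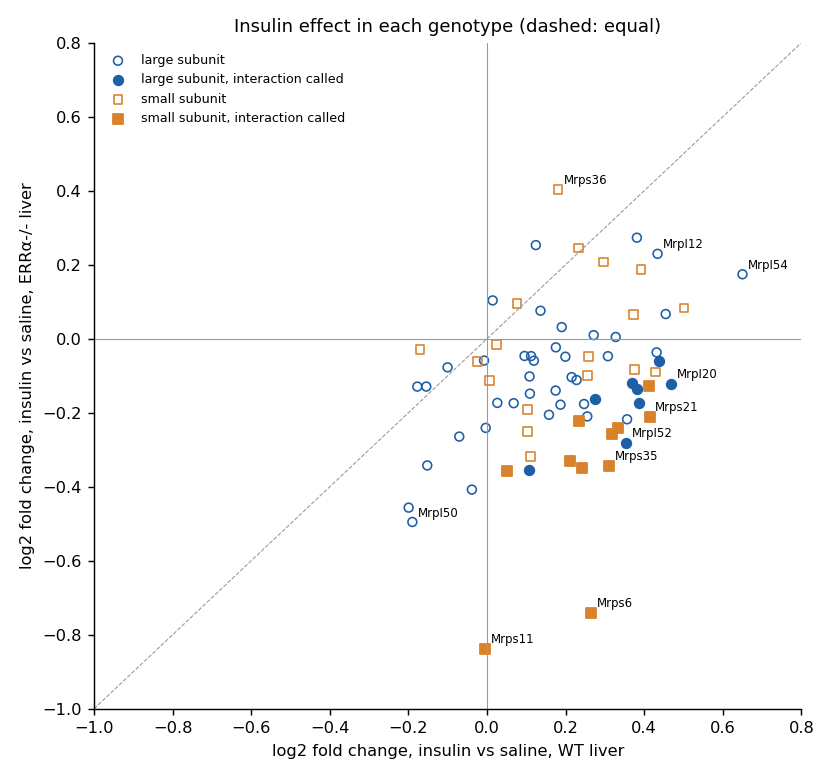
Insulin effect (log2 fold change) of each of the 76 genes in WT liver (x axis) against ERRα-/- liver (y axis), circles for large and squares for small subunit genes, filled where the interaction was called. Most points lie below the dashed line of equal effects, as for Mrps6 at 0.26 in WT and −0.74 in ERRα-/- liver.

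After saline, members were called in both directions between ERRα-/- and WT liver. The lower ones include the stalk protein gene, and the higher ones include 2 covered members. The share that was lower was at that of all genes. Of 76 genes 7 were higher in ERRα-/- liver (5.98% of all 13481 genes tested) and 4 were lower (5.30% of all genes). In the large subunit 3 were higher and 2 lower, and in the small subunit 4 were higher and 2 lower. The median was 0.08 for members and 0.00 for all genes, at 0.05 in large and 0.10 in small subunit genes. None passed by the quasi-likelihood test of edgeR, adjusted by Benjamini-Hochberg (0.0816% of all genes did), against 12 at an unadjusted p by edgeR and 11 calls with DESeq2. Library totals in place of TMM left 7 calls, 3 higher and 4 lower, while 4.67% of all genes were higher and 5.62% lower.

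Mrpl12 measured 25.3, 23.5, 29.4 and 24.3 CPM in WT and 17.7, 19.9, 15.3 and 19.4 CPM in ERRα-/- livers after saline. All ERRα-/- livers were lower, with a log2 fold change of −0.50 (SE 0.12, unadjusted p = 0.00141, edgeR). Mrpl47, the counterpart of bacterial L29 near the exit of the peptide tunnel, had 9.66, 10.4, 12.00 and 10.2 CPM in WT and 7.48, 6.69, 6.88 and 8.27 CPM in ERRα-/- livers. Here too the groups were apart, with a log2 fold change of −0.53 (SE 0.14, unadjusted p = 0.00262, edgeR). Mrps9, the counterpart of bacterial S9, was at 16.6, 11.9, 10.3 and 11.1 CPM in WT and 9.21, 9.77, 9.18 and 8.40 CPM in ERRα-/- livers. The groups did not overlap (log2 fold change −0.45 (SE 0.16, unadjusted p = 0.0178, edgeR)), but the call was lost without replicate 1 of WT saline. Mrps35 was also lower in every ERRα-/- liver, with a log2 fold change of −0.40 (SE 0.13, unadjusted p = 0.0114, edgeR).

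Among the genes that were higher, Mrps6 (covered, uncertain) had a log2 fold change of 0.84 (SE 0.30, unadjusted p = 0.0159, edgeR) with every ERRα-/- liver above every WT liver. Mrps18b (covered, uncertain) was 9.24, 10.03, 12.7 and 10.3 CPM in WT and 14.8, 12.7, 15.4 and 14.3 CPM in ERRα-/- livers, without overlap. Its log2 fold change was 0.44 (SE 0.13, unadjusted p = 0.00702, edgeR). Mrpl54 was 8.16, 8.66, 11.3 and 10.4 CPM in WT and 14.2, 12.4, 11.6 and 13.9 CPM in ERRα-/- livers. The ERRα-/- livers were all higher, with a log2 fold change of 0.43 (SE 0.14, unadjusted p = 0.0111, edgeR). For Mrps14, the counterpart of bacterial S14, the values were 8.42, 6.60, 10.9 and 11.6 CPM and 11.7, 12.2, 12.51 and 12.99 CPM. They were apart by little, with a log2 fold change of 0.40 (SE 0.17, unadjusted p = 0.0420, edgeR), and the call was lost without any 1 of the 4 ERRα-/- saline libraries. Mrps36 had the values 1.58, 2.31, 3.66 and 3.35 CPM in WT and 2.52, 1.45, 0.979 and 1.66 CPM in ERRα-/- livers, which overlapped, and was not called (log2 fold change −0.72 (SE 0.36, unadjusted p = 0.0707, edgeR)). Other members with known roles were not called, with 0.29 for Mrpl11, 0.20 for Mrpl58, −0.15 for Mrpl41, 0.10 for Mrps18a, 0.13 for Mrps18c and −0.28 for Mrps30.

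After insulin, all changes between genotypes were toward lower levels in ERRα-/- liver. They included the stalk protein gene and came from both subunits. Almost every member had a negative fold change. Of 76 genes 0 were higher (4.57% of all 13665 genes tested) and 14 were lower (5.42% of all genes), 8 large and 6 small subunit genes. The median was −0.28 for members and −0.02 for all genes, 71 of 76 lay below 0, and the medians were −0.29 in large and −0.26 in small subunit genes. By the quasi-likelihood test of edgeR, adjusted by Benjamini-Hochberg 0 passed (0.0585% of all genes did), against 14 calls by edgeR at an unadjusted p and 11 with DESeq2. The count was 6 without replicate 2 of ERRα-/- insulin (5.78% of all genes called), 7 without replicate 1 of ERRα-/- insulin (7.27%) and 9 without replicate 2 of WT insulin (13.2%), and it was 25 with library totals, which moved the median of all genes to −0.11 and gave 8.74% of all genes lower. With length and GC offsets it was 8, against 5.58% of all genes lower. With the replicate number as a block, although the numbers were not taken to pair the libraries, it was 8, of which 7 were among the 14. Replicate 2 of WT insulin was the highest of the 7 libraries for 49 members, and replicate 2 of ERRα-/- insulin was the lowest for 35.

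Mrps35 differed most, at 17.9, 30.1, 15.1 and 16.8 CPM in WT and 7.96, 10.6 and 10.3 CPM in ERRα-/- livers after insulin. The ERRα-/- livers were all lower, with a log2 fold change of −1.07 (SE 0.25, unadjusted p = 0.00153, edgeR). Mrpl12 was 35.5, 47.7, 26.96 and 28.3 CPM in WT and 24.5, 18.2 and 21.03 CPM in ERRα-/- livers. It was lower in every ERRα-/- liver, with a log2 fold change of −0.72 (SE 0.21, unadjusted p = 0.00668, edgeR). Mrps9 had 14.9, 21.4, 12.6 and 12.3 CPM in WT and 9.76, 11.1 and 10.9 CPM in ERRα-/- livers. It was apart in all libraries (log2 fold change −0.54 (SE 0.21, unadjusted p = 0.0288, edgeR)), but any 1 of the ERRα-/- insulin livers or replicate 2 of WT insulin left out ended its call. Mrps23, a small subunit protein without bacterial counterpart, had 19.5, 25.9, 23.2 and 19.4 CPM in WT and 13.4, 16.1 and 17.6 CPM in ERRα-/- livers. The groups did not overlap, with a log2 fold change of −0.49 (SE 0.17, unadjusted p = 0.0130, edgeR). The 4 genes lower in ERRα-/- liver after saline (Mrpl12, Mrpl47, Mrps9 and Mrps35) were all among the 14 lower after insulin, 4 of 4 and 4 of 14, in comparisons that share no library. Over all genes 149 were lower in both, which is 20.9% of the 714 lower after saline and 20.1% of the 741 lower after insulin. Values that were not called were −0.18 for Mrpl11, −0.12 for Mrpl58, −0.30 for Mrpl41, −0.22 for Mrps18a, −0.02 for Mrps18b, −0.17 for Mrps18c, −0.15 for Mrps30 and −0.51 for Mrps36.

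No member was called in ERRα3SA liver, which does not show that levels were equal. Levels in the 2 genotypes overlapped for the members with known roles. Of 76 genes 0 were higher (2.50% of all 13339 genes tested) and 0 were lower (2.38% of all genes), the median was −0.02 for members and 0.00 for all genes, and edgeR gave 2 at an unadjusted p without the fold threshold. By the quasi-likelihood test of edgeR, adjusted by Benjamini-Hochberg 0 passed (0% of all genes did), and DESeq2 also gave 0 calls. The count was 1 (lower) without replicate 1 of ERRα3SA and 2 (1 higher, 1 lower) without replicate 2 of ERRα3SA. The share of all genes called was not set beside these 2 counts, so they are not read as a result about the members. It was 1 (lower) with library totals (2.56% of all genes were lower) or without the count filter (2.18%). Replicate 4 of ERRα3SA, in which hepatocyte markers summed to 60404 CPM against 87901 to 99978 CPM in the other 3, was the lowest of the 8 libraries for 39 members.

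Mrpl12 was 52.6, 47.1, 56.6 and 49.1 CPM in WT and 49.9, 50.2, 44.4 and 33.00 CPM in ERRα3SA livers. Replicate 4 of ERRα3SA was the lowest and the other libraries overlapped, with a log2 fold change of −0.21 (SE 0.13, unadjusted p = 0.129, edgeR). Mrps30 was 16.1, 14.02, 16.9 and 15.03 CPM in WT and 16.9, 14.4, 21.9 and 21.2 CPM in ERRα3SA livers. It overlapped as well, with a log2 fold change of 0.26 (SE 0.14, unadjusted p = 0.0820, edgeR). The values of the others were −0.02 for Mrpl11, 0.01 for Mrpl58, −0.15 for Mrpl41, 0.02 for Mrps18a, 0.15 for Mrps18b, −0.03 for Mrps18c and 0.17 for Mrps36.

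In ERRα3SA muscle a few large subunit genes were called, all of them higher. The stalk protein gene was among them. The result rests on how replicate 1 of ERRα3SA is treated, since small subunit genes were called as well without it, and a difference between the subunits was not tested. Of 76 genes 7 were higher (2.78% of all 14081 genes tested) and 0 were lower (1.75% of all genes), and all 7 were large subunit genes. The median was 0.10 for members and 0.02 for all genes, at 0.14 in large and 0.07 in small subunit genes, and 58 of 76 lay above 0. None passed by the quasi-likelihood test of edgeR, adjusted by Benjamini-Hochberg (0% of all genes did), against 7 calls at an unadjusted p both with edgeR and with DESeq2. Without replicate 1 of ERRα3SA the count was 27 (26 higher, 1 lower), 18 large and 9 small subunit genes, and 14 of 76 passed after adjustment. Over all genes that fit gave 10.3% higher and 7.10% lower, and 3.23% passed after adjustment, so calls rose among genes in general as well. Library totals gave 3 calls, of which 2 were among the 7 and higher and 1 was another member and lower. In that fit 1.34% of all genes were higher and 2.65% lower.

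Replicate 1 of ERRα3SA muscle was the lowest of the 8 libraries for 36 members and the highest for 18. Its mitochondrial mRNAs summed to 233113 CPM against 72129.8 to 88679 CPM in the other ERRα3SA muscles. Its muscle fibre markers, led by Myh4, also stood apart, since they summed to 177397, 101318, 105976 and 78668 CPM in ERRα3SA and 102600.0, 103007, 108365 and 115763 CPM in WT muscles, with 0 of 5 called. The 2 mitochondrial rRNAs, which form the core of the ribosome that these proteins build, were also far above, with mt-Rnr1 at 3038, 697, 708 and 696 CPM and mt-Rnr2 at 5134, 1039, 1057 and 967 CPM. In WT muscles mt-Rnr1 was 674, 580.4, 589.7 and 681 CPM and mt-Rnr2 was 1005, 908, 917 and 1145 CPM. Replicate 4 of ERRα3SA muscle stood apart in other ways, with fibroblast markers at 2652 CPM against 973 to 1477 CPM. The part of these differences in the result was not tested.

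Mrpl51, a large subunit protein without bacterial counterpart, measured 82.1, 87.4, 76.4 and 85.99 CPM in WT and 127, 115, 117 and 115 CPM in ERRα3SA muscles. All ERRα3SA muscles were higher, with a log2 fold change of 0.55 (SE 0.10, unadjusted p = 2.85e-04, edgeR), and of 0.52 (unadjusted p = 2.30e-05 by edgeR) without replicate 1 of ERRα3SA. Mrpl15, the counterpart of bacterial L15, had 43.5, 43.3, 45.2 and 41.6 CPM in WT and 60.3, 50.3, 50.6 and 49.5 CPM in ERRα3SA muscles. Replicate 1 was the highest and the groups did not overlap, with a log2 fold change of 0.31 (SE 0.10, unadjusted p = 0.0148, edgeR), and without replicate 1 it was 0.25 and not called. Mrpl12 was 31.7, 31.9, 26.5 and 31.7 CPM in WT and 23.4, 53.9, 56.4 and 53.9 CPM in ERRα3SA muscles. Replicate 1 was the lowest of all 8 and the other 3 were the highest, and the log2 fold change was 0.65 (SE 0.25, unadjusted p = 0.0259, edgeR) with and 0.88 (unadjusted p = 1.35e-06 by edgeR) without that library. With library totals Mrpl12 was not called. Values not called were 0.06 for Mrpl11, 0.14 for Mrpl58, 0.35 for Mrpl41, −0.05 for Mrps18a, −0.15 for Mrps18b, −0.07 for Mrps18c, −0.22 for Mrps30 and 0.28 for Mrps36.

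The ERRα3SA effect was then compared directly between muscle and liver, treating all samples as independent animals. The muscle libraries are those of the comparison above, so the 2 results are not separate observations. Of 76 genes 8 were higher (3.16% of all 15688 genes tested), all large, and 1 small subunit gene was lower (2.41% of all genes), with a median of 0.10 for members and 0.00 for all genes. None passed by the quasi-likelihood test of edgeR, adjusted by Benjamini-Hochberg (0% of all genes did), while 9 calls came at an unadjusted p with edgeR and 11 with DESeq2. The count was 23 (20 higher, 3 lower), 16 large and 7 small subunit genes, without replicate 1 of ERRα3SA muscle (8.53% of all genes were higher and 8.73% lower in that fit), 5 without replicate 2 (5.78% of all genes called) and 5 without replicate 3 (5.82%) of that group, and 5 with library totals (3 higher, 2 lower, against 5.35% of all genes called).

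Mrpl14, the counterpart of bacterial L14, was 30.99, 27.1, 21.5 and 26.3 CPM in WT and 27.4, 55.1, 50.4 and 51.1 CPM in ERRα3SA muscles. In livers it was 45.7, 42.4, 40.4 and 39.7 CPM in WT and 40.7, 40.2, 27.8 and 21.02 CPM in ERRα3SA. Replicates 2 to 4 of ERRα3SA muscle were above every WT muscle and replicate 4 of ERRα3SA liver was the lowest liver, with a log2 difference of 1.17 (SE 0.30, unadjusted p = 0.00132, edgeR). For Mrpl12 the log2 difference was 0.84 (SE 0.30, unadjusted p = 0.0118, edgeR) and for Mrpl51 it was 0.60 (SE 0.15, unadjusted p = 8.87e-04, edgeR). Mrpl52 had 16.6, 16.7, 14.97 and 13.4 CPM in WT and 16.3, 22.4, 19.9 and 21.4 CPM in ERRα3SA muscles, where replicates 2 to 4 lay above every WT muscle, and a log2 difference of 0.50 (SE 0.17, unadjusted p = 0.00750, edgeR). Mrps30 went the other way, at 18.4, 20.5, 21.1 and 19.7 CPM in WT and 22.8, 15.2, 15.1 and 14.3 CPM in ERRα3SA muscles. Replicate 1 of ERRα3SA was the highest and the other 3 were the lowest, and the log2 difference was −0.50 (SE 0.22, unadjusted p = 0.0365, edgeR). No call was made for Mrpl11 (0.06), Mrpl58 (0.10), Mrpl41 (0.47), Mrps18a (−0.10), Mrps18b (−0.32), Mrps18c (−0.06) or Mrps36 (0.08).

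Between WT muscle and WT liver most of these genes differed, in both directions, as did most genes in general. The share of members called was 73.7%, below the 84.2% of all genes, so a difference between these tissues is not particular to the members. Each subunit had genes on both sides. Of 76 genes 29 were higher in muscle (42.0% of all 14886 genes tested) and 27 were lower (42.2% of all genes), with 16 higher and 17 lower in the large and 13 higher and 10 lower in the small subunit. By the quasi-likelihood test of edgeR, adjusted by Benjamini-Hochberg 62 passed (86.5% of all genes did). The median was −0.08 for members and 0.00 for all genes and −0.08 in each subunit. The split was 38 higher and 15 lower with length and GC offsets (median 0.26, 42.8% of all genes were higher and 42.4% lower). It was 31 higher and 21 lower with library totals (median 0.06, 45.2% of all genes were higher and 38.8% lower). Library totals move all genes alike and took the median of all genes to 0.14, so the change of sign there says nothing about the members. The member median lay below that of all genes both with TMM and with library totals. With length and GC offsets it was 0.26, so its sign depended on those offsets. The median of the large minus that of the small subunit was 0.00, and 0.10 with Mrps30 and Mrps18a counted in the large subunit.

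Mrpl42, a member without bacterial counterpart, measured 36.7, 30.98, 35.6 and 34.3 CPM in WT livers and 132, 155, 145 and 159.9 CPM in WT muscles. Every muscle was far above every liver, with a log2 fold change of 2.14 (SE 0.08, adjusted p = 5.17e-12 by the quasi-likelihood test of edgeR, adjusted by Benjamini-Hochberg). In ERRα3SA muscles it had 262, 145, 143 and 123 CPM, with replicate 1 apart. Mrps36 was 6.86, 6.18, 6.34 and 6.56 CPM in livers and 23.3, 23.98, 19.8 and 20.2 CPM in muscles. It was higher in every muscle, with a log2 fold change of 1.78 (SE 0.10, unadjusted p = 8.19e-11, edgeR). For Mrps23 the values were 23.4, 17.8, 22.1 and 23.1 CPM in livers and 59.6, 63.99, 59.4 and 61.5 CPM in muscles. The tissues were apart, with a log2 fold change of 1.53 (SE 0.08, unadjusted p = 1.14e-10, edgeR). Mrps15, the counterpart of bacterial S15, had 22.04, 20.9, 21.98 and 21.4 CPM in livers and 41.6, 47.2, 42.3 and 43.8 CPM in muscles. It did not overlap, with a log2 fold change of 1.05 (SE 0.07, unadjusted p = 5.30e-10, edgeR).

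On the liver side Mrpl52 was 31.97, 32.2, 36.6 and 36.4 CPM in WT livers and 16.6, 16.7, 14.97 and 13.4 CPM in WT muscles. All livers were higher, with a log2 fold change of −1.12 (SE 0.08, unadjusted p = 5.52e-09, edgeR). Mrpl27, the counterpart of bacterial L27 at the peptidyl transferase centre, was 42.6, 40.2, 33.6 and 37.7 CPM in livers and 18.8, 20.2, 18.3 and 17.2 CPM in muscles. The liver values were all above, with a log2 fold change of −1.02 (SE 0.09, unadjusted p = 2.54e-08, edgeR). Mrps2 was 35.6, 34.5, 40.4 and 35.9 CPM in livers and 15.9, 21.1, 16.7 and 20.3 CPM in muscles. They were fully separate, with a log2 fold change of −0.95 (SE 0.09, unadjusted p = 1.66e-07, edgeR). Mrpl38 was 66.5, 56.1, 62.6 and 62.2 CPM in livers and 33.4, 36.2, 29.8 and 37.1 CPM in muscles, without overlap. Its log2 fold change was −0.83 (SE 0.08, unadjusted p = 1.42e-07, edgeR). Mrpl12 was lower in muscle (−0.72 (SE 0.08, unadjusted p = 6.66e-07, edgeR)), whereas the stalk base gene Mrpl11 was higher (0.47 (SE 0.07, unadjusted p = 1.72e-05, edgeR)).

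Of the 3 relatives of bacterial S18, 1 was called between the tissues. Mrps18a was 28.5, 30.5, 25.2 and 25.9 CPM in WT livers and 39.03, 43.6, 35.4 and 40.8 CPM in WT muscles, with a log2 fold change of 0.56 (SE 0.08, unadjusted p = 1.52e-05, edgeR). Mrps18b, which is covered, was 14.7, 15.5, 17.5 and 16.6 CPM in livers and 13.98, 12.4, 14.7 and 12.1 CPM in muscles, and its log2 fold change of −0.24 did not reach the fold threshold. Mrps18c, also covered, was 12.8, 12.9, 10.97 and 12.04 CPM in livers and 9.35, 12.7, 8.75 and 10.96 CPM in muscles, which overlapped (log2 fold change −0.19). The called one, Mrps18a, is the relative that structures place in the large subunit. Mrps30 was also higher in muscle (0.39 (SE 0.08, unadjusted p = 3.98e-04, edgeR)) and Mrpl41 was lower (−0.46 (SE 0.12, unadjusted p = 0.00154, edgeR)), a call that length and GC offsets ended. With those offsets the call of Mrpl49 turned, which measured 33.2, 32.6, 29.2 and 29.2 CPM in WT livers and 25.1, 26.1, 20.7 and 25.1 CPM in WT muscles and had a log2 fold change of −0.33 (SE 0.09, unadjusted p = 0.00220, edgeR) without and of 0.31 (unadjusted p = 0.00132, edgeR) with the offsets. Mrpl58 was not called (−0.21).

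**Figure D5:**
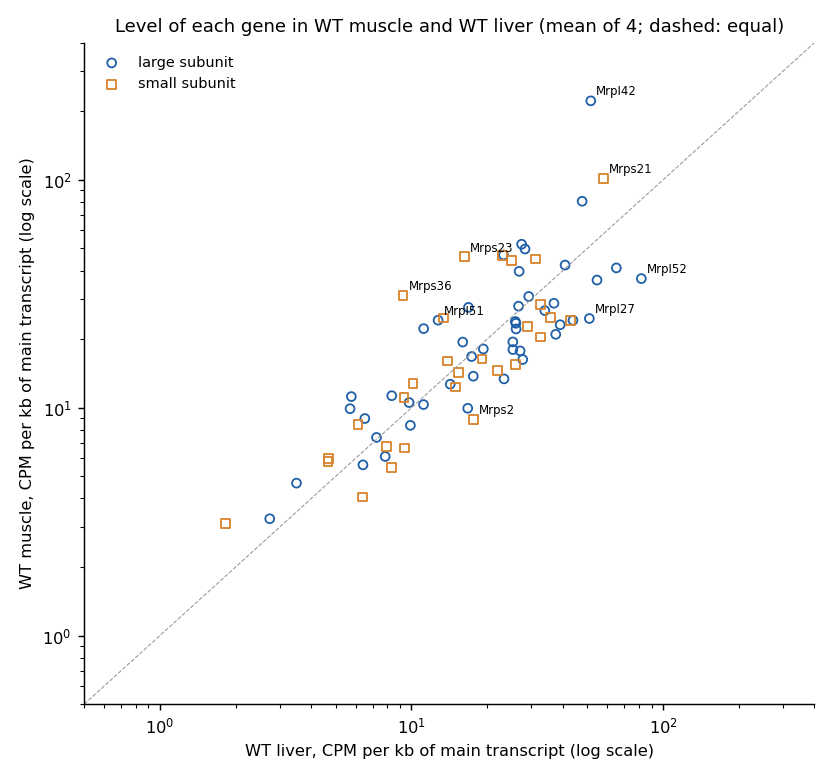
Mean level of each of the 76 genes in 4 WT livers (x axis) and 4 WT muscles (y axis), in CPM per kb of main transcript on log axes, circles for large and squares for small subunit genes. Points scatter on both sides of the dashed line of equal levels, with Mrpl42 (222 CPM per kb in muscle) far above it and Mrpl52 (82.01 in liver) below it.

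Other genes of mitochondrial translation were read beside the members. The 5 ribosomal protein genes outside the naming pattern gave 0 calls among 5 with insulin in either genotype. Among them Gadd45gip1 was higher in ERRα-/- liver after saline (0.44 (SE 0.13, unadjusted p = 0.00675, edgeR), 1 of 5 higher and 0 lower) and had a positive interaction (0.72, 1 of 5). Ptcd3 was lower in ERRα-/- liver after insulin (−0.32, 0 of 5 higher and 1 lower). Between muscle and liver 2 of 5 were higher (Chchd1 0.88, Ptcd3 0.72) and 2 lower (Gadd45gip1 −0.70, Aurkaip1 −0.31), and in the ERRα3SA comparisons 0 of 5 were called in liver, in muscle and in the interaction. The 24 genes of ribosome assembly had 3 of 24 higher and 1 lower with insulin in WT liver, with Fastkd2 (0.52) and Ddx28 (0.49) the called genes without overlap between groups. In ERRα-/- liver 0 were higher and 4 lower with insulin, with Rpusd4 at −0.63 and Mettl17 at −0.53, and the interaction had 2 higher (Mrm1 0.95, Eral1 0.39) and 0 lower. ERRα-/- against WT liver had 0 higher and 1 lower both after saline (Mpv17l2, −0.29) and after insulin. ERRα3SA gave 0 in liver, 3 higher and 0 lower in muscle and 3 higher and 0 lower in the interaction, and muscle against liver gave 10 higher and 7 lower.

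The 15 translation factors had 0 higher and 2 lower with insulin in WT liver, and 0 higher and 3 lower in ERRα-/- liver, where Taco1 (−0.59) and Mtif3 (−0.58), which acts in initiation, fell most. ERRα-/- against WT liver gave 0 higher and 2 lower after saline, with the insertase gene Oxa1l at −0.33, and 0 higher and 3 lower after insulin, with Taco1 at −0.59 and the elongation factor gene Gfm1 at −0.35. The interaction gave 1 of 15 higher and 0 lower, ERRα3SA gave 0 of 15 higher and 0 lower in liver and 3 of 15 higher and 0 lower in muscle (Mtrf1l 0.58, Mtif3 0.29). Muscle against liver gave 5 of 15 higher and 6 lower, and the genotype by tissue interaction 2 of 15 higher and 0 lower. Mitochondrial tRNA synthetase genes had 2 of 20 higher and 1 lower with insulin in WT liver, Cars2 reaching 0.58 (adjusted p = 0.0481 by the quasi-likelihood test of edgeR, adjusted by Benjamini-Hochberg), and 0 of 20 higher and 0 lower in ERRα-/- liver. Against WT, ERRα-/- liver had 0 of 20 higher and 2 lower after saline (Fars2 −0.28) and 0 of 20 higher and 4 lower after insulin, with Qrsl1 at −0.60 and Yars2 at −0.44. The insulin interaction had 1 of 20 higher and 0 lower, ERRα3SA liver 0 of 20 higher and 1 lower and ERRα3SA muscle 1 of 20 higher and 0 lower. Muscle against liver had 3 of 20 higher and 10 lower, and the ERRα3SA interaction 1 of 20 higher and 0 lower.

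The mRNAs of the mitochondrial genome, which the ribosome translates, summed to 48098, 37900.0, 38264 and 45318 CPM in WT saline and 33439, 30553, 41149 and 29989.9 CPM in ERRα-/- saline livers. Replicate 3 of ERRα-/- saline lay among the WT livers and the other 3 lay below them, and ERRα-/- liver had 0 of 12 higher and 6 lower (median −0.30). With insulin there were 0 of 12 higher and 1 lower in WT and 1 of 12 higher and 0 lower in ERRα-/- liver, and WT insulin replicate 2 had 19124 CPM against 37624 to 40088 CPM in its group. ERRα-/- against WT liver after insulin had 0 of 12 higher and 0 lower, and the insulin interaction 0 of 12 higher and 0 lower. In ERRα3SA they numbered 1 of 13 higher and 0 lower in liver, 1 of 13 higher and 0 lower in muscle and 0 of 13 higher and 0 lower in the interaction. Between WT muscle and WT liver the count was 13 of 13 higher and 0 lower (median 1.35), and both mitochondrial rRNAs were higher as well (mt-Rnr1 1.45, mt-Rnr2 1.64). The median member was at −0.08 with TMM and was positive with length and GC offsets. The rRNA genes are not in the insulin table and had 0 of 2 called in ERRα3SA liver and in ERRα3SA muscle.

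Genes with cytosolic ribosomal protein symbols, 98 in all with a few S6 kinase genes among them, had 13 of 88 higher and 1 lower with insulin in WT liver (median 0.21) and 1 of 90 higher and 11 lower in ERRα-/- liver (median −0.15). After saline ERRα-/- liver had 62 of 89 higher and 0 lower (median 0.38), against 7 of 76 mitochondrial ribosomal protein genes and 5.98% of all genes higher. After insulin it had 2 of 89 higher and 2 lower (median −0.01) while 14 of 76 mitochondrial ones were lower. The difference between the 2 lists was not tested. The insulin interaction had 23 of 90 higher and 1 lower, ERRα3SA liver 0 of 88 higher and 4 lower, ERRα3SA muscle 27 of 89 higher and 0 lower, muscle against liver 8 of 89 higher and 51 lower and the ERRα3SA interaction 33 of 90 higher and 0 lower. Over all genes 4.75% were higher in the insulin interaction, 2.78% in ERRα3SA muscle and 3.16% in the ERRα3SA interaction. Summed over the list, replicate 2 of WT insulin had 10239.7 CPM against 6677 to 7939 CPM in its group, and replicate 2 of WT saline had 6156 CPM against 6819 to 7735 CPM. The same 2 libraries thus stood at the low and high ends for both kinds of ribosomal protein gene.

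Cell type markers were counted in the same comparisons, 5 genes a list (4 for erythroid cells), and lists without calls are not named. Insulin in WT liver gave 0 of 5 higher and 1 lower for endothelium, 0 of 5 higher and 2 lower for fibroblast, 2 of 2 higher and 0 lower for adipocyte and 1 of 1 higher and 0 lower for muscle fibre, the adipocyte pair being Cidec and Fabp4, which hepatocytes can also express, while Adipoq, Plin1 and Lep were too low to test. The adipocyte list summed to 35.2, 52.9, 20.6 and 15.4 CPM after saline and 113, 62.7, 79.9 and 95.1 CPM after insulin. In ERRα-/- liver insulin gave 0 of 5 higher and 1 lower for hepatocyte and 1 of 4 higher and 0 lower for erythroid, and ERRα-/- against WT liver gave 1 of 5 higher and 0 lower for hepatocyte, 0 of 5 higher and 2 lower for macrophage, 0 of 5 higher and 1 lower for endothelium, 0 of 5 higher and 1 lower for fibroblast and 0 of 4 higher and 1 lower for erythroid after saline. The macrophage list, led by Clec4f and Cd5l, then summed to 134, 267, 166 and 185 CPM in WT and 153, 146, 143 and 152 CPM in ERRα-/- livers, with replicate 2 of WT saline the highest. After insulin ERRα-/- against WT liver gave 1 of 5 higher and 0 lower for hepatocyte, 1 of 5 higher and 0 lower for endothelium and 0 of 4 higher and 1 lower for muscle fibre, and the insulin interaction gave 0 of 5 higher and 1 lower for fibroblast and 0 of 4 higher and 1 lower for erythroid. ERRα3SA gave 1 of 5 higher and 0 lower for macrophage, 1 of 3 higher and 2 lower for leukocyte, 1 of 5 higher and 0 lower for fibroblast and 0 of 5 higher and 3 lower for bile duct in liver, 1 of 3 higher and 1 lower for bile duct and 1 of 4 higher and 0 lower for erythroid in muscle and 0 of 5 higher and 1 lower for macrophage, 0 of 5 higher and 1 lower for endothelium, 0 of 5 higher and 1 lower for adipocyte and 1 of 4 higher and 0 lower for erythroid in the interaction. Muscle against liver gave 0 of 5 higher and 5 lower for hepatocyte, 0 of 5 higher and 5 lower for macrophage, 1 of 4 higher and 3 lower for leukocyte, 2 of 5 higher and 2 lower for endothelium, 3 of 5 higher and 2 lower for fibroblast, 0 of 5 higher and 5 lower for bile duct, 5 of 5 higher and 0 lower for adipocyte, 0 of 4 higher and 4 lower for erythroid and 5 of 5 higher and 0 lower for muscle fibre. In bulk tissue fewer cells of a type and less RNA per cell cannot be told apart.

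Promoter windows from 250 bases before to 50 after the start of each gene (RefSeq, GRCm38.p6) were matched by symbol for 68 of the 77 members, in 74 windows, and 9 members had none. The short form of the ERR binding site, AAGGTCA, was sought on both strands and stood in 4 of 74 member windows (5.41%), against 4.72% of 32851 windows in all, while the longer form TNAAGGTCA stood in 0 member windows against 1.28%. The core motif of NRF1, GCGCATGC, stood in 7 member windows (9.46%, against 2.71%), that of ETS factors, CCGGAAG, in 25 (33.8%, against 8.86%) and that of YY1, AAGATGG, in 13 (17.6%, against 6.34%). Both strands were read for each motif, and a match is a description of the sequence only. The windows of Mrpl12 (chr11:120484387-120484686, plus strand), Mrps21 (chr3:95871465-95871764, minus strand) and Mrps15 (chr4:126046678-126046977, plus strand) are shown because they hold AAGGTCA, and Mrpl36 is the fourth gene that does. Mrpl51 (chr6:125191950-125192249, plus strand, CCGGAAG) and Mrpl42 (chr10:95501900-95502199, minus strand, AAGATGG) are shown for their changes in ERRα3SA muscle and between the tissues. Only the motif for which a window is shown is in capitals, so an ETS core in the window of Mrps21 is left in small letters. Each window is written along the strand of its gene, where TGACCTT is the same motif on the other strand.
Mrpl12: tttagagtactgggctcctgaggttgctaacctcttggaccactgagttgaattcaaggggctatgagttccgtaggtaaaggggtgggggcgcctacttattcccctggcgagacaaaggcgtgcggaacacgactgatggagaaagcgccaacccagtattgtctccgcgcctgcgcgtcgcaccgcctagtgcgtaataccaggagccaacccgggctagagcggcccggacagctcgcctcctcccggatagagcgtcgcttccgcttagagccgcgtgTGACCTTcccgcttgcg
Mrps21: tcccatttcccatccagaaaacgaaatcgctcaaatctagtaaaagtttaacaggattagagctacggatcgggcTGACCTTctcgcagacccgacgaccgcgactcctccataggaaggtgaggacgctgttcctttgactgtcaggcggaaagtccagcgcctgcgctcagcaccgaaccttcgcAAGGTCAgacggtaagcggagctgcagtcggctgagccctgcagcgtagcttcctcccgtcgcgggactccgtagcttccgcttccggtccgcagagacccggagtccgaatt
Mrps15: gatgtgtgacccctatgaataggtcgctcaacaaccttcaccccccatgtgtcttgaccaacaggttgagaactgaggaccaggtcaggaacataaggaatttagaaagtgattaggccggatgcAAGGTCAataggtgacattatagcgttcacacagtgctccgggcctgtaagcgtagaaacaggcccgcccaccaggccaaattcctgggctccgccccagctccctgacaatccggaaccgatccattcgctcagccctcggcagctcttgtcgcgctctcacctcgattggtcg
Mrpl51: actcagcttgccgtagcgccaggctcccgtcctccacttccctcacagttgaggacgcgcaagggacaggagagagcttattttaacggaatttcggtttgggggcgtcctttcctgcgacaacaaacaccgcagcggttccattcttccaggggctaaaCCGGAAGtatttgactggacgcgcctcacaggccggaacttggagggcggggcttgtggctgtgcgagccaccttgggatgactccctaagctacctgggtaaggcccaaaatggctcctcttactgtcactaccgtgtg
Mrpl42: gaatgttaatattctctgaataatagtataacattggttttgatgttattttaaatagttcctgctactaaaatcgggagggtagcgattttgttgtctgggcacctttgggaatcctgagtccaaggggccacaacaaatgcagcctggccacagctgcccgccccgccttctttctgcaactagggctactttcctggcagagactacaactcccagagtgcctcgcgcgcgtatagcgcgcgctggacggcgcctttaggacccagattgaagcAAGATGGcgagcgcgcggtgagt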

How the data were processed

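Raw counts per gene from 15 liver libraries of the insulin experiment and 16 liver and muscle libraries of the ERRα3SA experiment were used as deposited. The authors aligned the reads to mm10 with STAR, per the submitters' processing notes, and counted reads per gene without normalizing, and the strand setting of that counting is not given. Depth was 35871419 to 48317108 counts per library in the first table and 20481405 to 33412022 in the second, and groups of 3 or 4 animals resolve only changes larger than their spread.

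edgeR 4.0.16 (R 4.3.3) gave each gene a log2 fold change, its standard error and a p-value by a quasi-likelihood test after TMM scaling and filterByExpr, each comparison on its own groups and each interaction on its 4 groups. A gene was called when its fold change was 1.2 or more in either direction at an unadjusted p under 0.05, and Benjamini-Hochberg adjustment ran over all genes tested. Log2 CPM used a prior count of 2. DESeq2 1.42.0 was the alternative test. The test, scaling, count filter, groups in the fit, replicate block, offsets for transcript length and GC content, assignment of Mrps30 and Mrps18a, removal of Mrps36 and each library left out were varied. The fits were also run on simulated data, whose outcome is not given and on which no result here rests. Figures were drawn with matplotlib 3.10.9 in Python 3.11.15.

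Symbols, gene types and exons came from GENCODE vM21. Named members are those with known roles and, per comparison, the 4 largest rises and 4 largest falls among called members whose groups do not overlap (for interactions without the condition on overlap), with at most 2 rises and 2 falls from each companion list. Companion lists are ribosomal proteins outside the naming pattern, ribosome assembly, translation factors, mitochondrial tRNA synthetases, mitochondrial mRNAs and rRNAs, cytosolic ribosomal proteins and markers of 9 cell types. Members and lists were chosen with earlier results of these data known. Each replicate is taken as a separate mouse, and a liver and a muscle with the same number may come from 1 animal, which the labels do not say. Comparisons between the 2 tables were left out.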

Additional observations from a re-analysis of the deposited data

Results flagged for a closer look

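In 253 groups of one quantity with 4 libraries each, 1 library lay apart from its fellow replicates in 30, where chance alone gives about 1 in 20. Each value is followed by the range of the other 3 libraries, in CPM except for ratios. Replicate 2 of WT saline had summed CPM of large subunit genes 759 (899 to 919), summed CPM of small subunit genes 375 (441 to 454) and Mrpl46 9.51 (11.99 to 12.2). Replicate 4 of ERRα3SA liver had summed CPM of large subunit genes 1323 (1493 to 1516), Mrpl11 22.2 (25.6 to 26.1) and Mrpl51 32.2 (43.5 to 45.7). Replicate 1 of ERRα3SA muscle had ratio of large to small subunit sums 2.67 (2.19 to 2.22), Mrpl12 23.4 (53.9 to 56.4), Mrpl15 60.3 (49.5 to 50.6), Mrpl20 7.54 (20.5 to 21.9), Mrpl41 11.8 (18.7 to 19.8), Mrpl42 262 (123 to 145), Mrpl51 127 (115 to 117), Mrpl54 19.6 (36.2 to 38.3), Mrpl58 29.7 (21.3 to 21.6), Mrps11 2.87 (14.2 to 15.6), Mrps14 11.02 (36.8 to 41.9), Mrps15 71.4 (39.7 to 44.97), Mrps30 22.8 (14.3 to 15.2), mt-Rnr1 3038 (696 to 708) and mt-Rnr2 5134 (967 to 1057). Replicate 3 of WT muscle had Mrpl12 26.5 (31.7 to 31.9). Replicate 1 of WT saline had Mrpl41 14.9 (9.15 to 9.66). Replicate 4 of ERRα3SA muscle had Mrpl49 20.3 (26.04 to 27.2). Replicate 3 of ERRα-/- saline had Mrpl51 22.00 (27.5 to 27.8). Replicate 4 of WT saline had Mrps11 5.04 (3.05 to 3.16). Replicate 4 of WT insulin had Mrps18c 12.02 (10.9 to 11.04). Replicate 3 of ERRα3SA muscle had Mrps2 16.1 (18.96 to 19.4). Replicate 1 of ERRα3SA liver had Mrps9 24.96 (19.4 to 20.1). Replicate 2 of WT insulin had Esrra 96.4 (53.7 to 58.97).

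The log2 difference between the insulin effects in WT and ERRα-/- liver was 0.63 for Mrpl52, 1.00 for Mrps6, 0.83 for Mrps11, 0.45 for Mrps18b and 0.65 for Mrps35. The log2 difference between the ERRα3SA effects in muscle and liver was 0.84 for Mrpl12, 1.17 for Mrpl14, 0.60 for Mrpl51, 0.50 for Mrpl52 and −0.50 for Mrps30. All 10 were called at an unadjusted p, and by the quasi-likelihood test of edgeR, adjusted by Benjamini-Hochberg, 0 of the 10 passed.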

How the results depend on the processing

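Of 90 alternatives to the 9 counts of called members that kept all libraries, 24 moved a count by more than 1.5 times, and 85 fits left out 1 library each. The counts in this section stand without the share of all genes called, which also changed between fits. They are therefore not read as results about the members. The Benjamini-Hochberg rule gave 0 members with insulin in WT liver, 1 with insulin in ERRα-/- liver, 0 in each ERRα-/- comparison with WT, 0 in both interactions and 0 in ERRα3SA muscle. Library totals in place of TMM gave 7 calls in ERRα-/- liver after saline, 25 after insulin, 1 in ERRα3SA liver, 3 in ERRα3SA muscle and 5 in its interaction with tissue. Without the count filter ERRα3SA liver had 1 call. Offsets for length and GC content gave 8 calls with insulin in WT liver, 8 in ERRα-/- against WT liver after insulin and 4 in the insulin interaction. DESeq2, RLE factors, a joint fit of all groups and removal of Mrps36 changed no count by more than 1.5 times.

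Replicate numbers are shared between groups, but in no comparison did every same-numbered pair have a correlation above 0.1, so the numbers were not taken to pair the libraries. With insulin in WT liver 3 of 4 pairs did (0.136, 0.388 and 0.305) and replicate 1 did not (0.0367), so a shared origin there was not settled. With the number as a block the counts were 8 in ERRα-/- against WT liver after insulin, 1 in ERRα3SA liver and 3 in ERRα3SA muscle. With the block and the offsets together they were 4 with insulin in WT liver, 5 in ERRα-/- liver, 7 in ERRα-/- against WT liver after insulin, 8 in the insulin interaction and 1 in ERRα3SA liver. No other count changed by more than 1.5 times with the block.

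With each library left out in turn the counts ranged from 7 to 19 with insulin in WT liver, from 5 to 14 in ERRα-/- liver, from 8 to 13 in ERRα-/- liver after saline, from 6 to 16 after insulin, from 6 to 22 in the insulin interaction, from 0 to 2 in ERRα3SA liver, from 5 to 27 in ERRα3SA muscle, from 54 to 57 between muscle and liver and from 5 to 23 in the ERRα3SA interaction. Calls among all genes changed with the library left out as well, so the ranges do not describe the members alone. For 114 results of named members and 2100 alternatives, 0 reversed. Reversed meant a change of sign with a call in either fit, so changes of sign without a call were not counted. Among the other members the call of Mrpl49 between muscle and liver turned with the offsets for length and GC content. Stronger meant that a call was gained and weaker that a call was lost. Among alternatives that kept all libraries 945 were the same, 11 stronger and 70 weaker, and with a library left out 981 were the same, 21 stronger and 72 weaker. The large minus small subunit median between muscle and liver went from 0.00 to 0.10 with Mrps30 and Mrps18a counted in the large subunit. The largest shift of the median of all genes was 0.15.

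Limits are the 3 or 4 animals per group, 1 dose and 1 time of insulin, bulk tissue, 11 covered members, and 2 tables that cannot be compared directly. Protein levels and ribosome assembly were not measured.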
